A study of Glycine max with 13 samples.

Results

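The sites described here are places on soybean DNA where most auxin response factors (ARFs) of both main clades of the maize family had a binding event, but where at least 1 ARF had none. DNA affinity purification sequencing (DAP-seq) was run with 12 maize ARFs on genomic DNA extracted from soybean leaf. In this assay a tagged protein made outside the cell is incubated with fragmented naked DNA, and the fragments it holds are sequenced. Each ARF had 1 library and 1 deposited list of events, so the value of a single ARF stands without replicates. The negative control, GST-HALO without an ARF, was not analysed here.

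ARF4, ARF16, ARF18, ARF27, ARF29 and ARF34 were taken as clade A, and ARF7, ARF10, ARF14, ARF25, ARF36 and ARF39 as clade B, an assignment that is background knowledge and not part of the sample labels. Events of the 12 lists were pooled and chained into 1 site wherever neighbouring positions on a chromosome lay within 100 bp. A site was kept when at least 4 ARFs of each clade had an event there and not all 12 did. This gave 1412 of 71895 sites, or 1.96% of all sites and 3.76% of sites with events of 2 or more ARFs. They held 14699 of 177320 events, or 8.29%. They are called shared sites below. Sites with all 12 ARFs (240) and clade-restricted sites, which had at least 4 ARFs of 1 clade and 0 of the other (2851 of clade A and 4173 of clade B), are given only for comparison.

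ARFs are the transcription factors through which the plant hormone auxin changes gene expression. They bind auxin response elements, short DNA motifs with the core TGTC, through a B3-type DNA-binding domain, and they can bind as dimers on paired elements. Clade A ARFs are generally described as activators of auxin-responsive genes and clade B ARFs as repressors, so a site that both can bind is a place where they could compete in a cell. DAP-seq reads affinity for DNA without chromatin, and the proteins and the DNA here came from different species.

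Presence of events chose these sites, so which ARFs were missing is a description. ARF18 was absent from 1201 of the 1412 shared sites, or 85.1% (Wilson 95% interval 83.1% to 86.8%, which covers counting error only, as do all such intervals here). ARF39 was absent from 612, or 43.3% (40.8% to 45.9%). ARF29 followed, absent from 29.7%. The other clade A ARFs were rarely absent, with shares of 7.08% for ARF27, 5.67% for ARF16, 3.05% for ARF4 and 2.34% for ARF34. In clade B, ARF14 was absent from 17.7%, ARF10 from 13.2%, ARF7 from 10.5%, ARF36 from 3.26% and ARF25 from 2.48%.

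**Figure D1:**
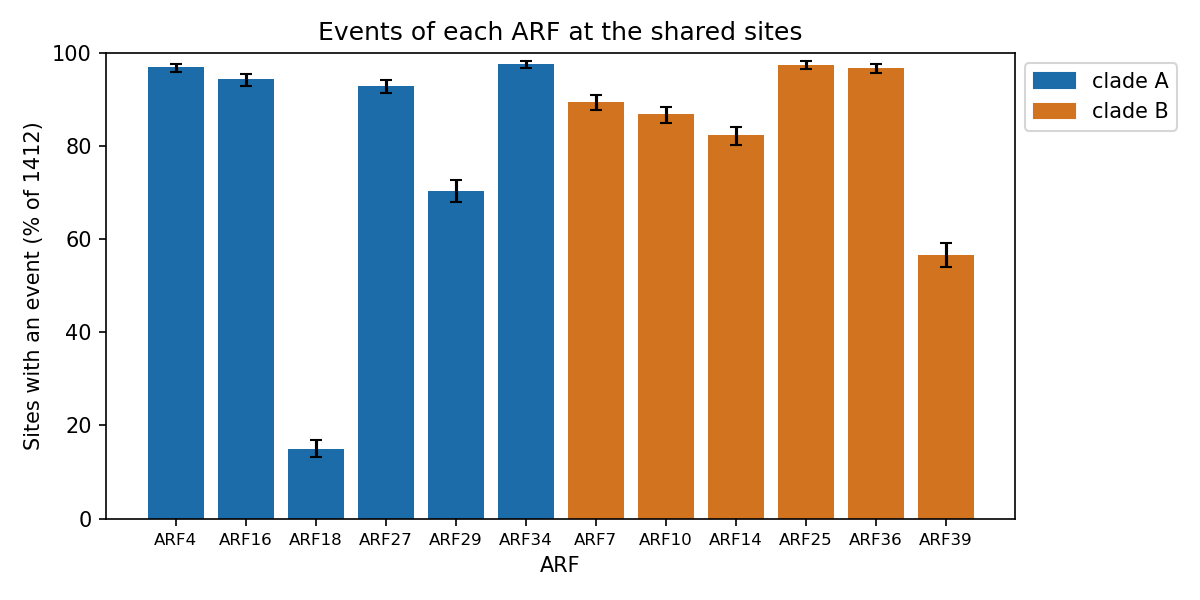
Share of the 1412 shared sites at which each ARF had an event, in percent, with Wilson 95% intervals as error bars, clade A in blue and clade B in orange. ARF18 (14.9%) and ARF39 (56.7%) have the lowest bars of their clades, and ARF34 (97.7%) and ARF25 (97.5%) the highest.

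The missing ARFs were largely those with short event lists. ARF18 had the shortest list, with 1106 events, followed by ARF39 with 4210 and ARF29 with 5395, and ARF34 had the longest, with 35715. Sequencing depth is unknown for every library, so an absent event cannot be told apart from one below the threshold of that list. The part that list length plays in the absences was not tested. An event of the missing ARF lay within 500 bp at 6 of the 1201 sites without ARF18 (0.50%), the lowest share. The highest was at 4 of the 33 sites without ARF34 (12.1%). These shares have no background rate beside them, and a longer list has more events to lie near a site.

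Sites with 10 ARFs were the most frequent, and most sites with 11 ARFs lacked ARF18. Events of 8 ARFs were present at 201 shared sites (14.2%), of 9 ARFs at 332 (23.5%), of 10 ARFs at 474 (33.6%) and of 11 ARFs at 405 (28.7%). Of the sites with 11 ARFs, 311 lacked ARF18, 32 lacked ARF39 and 13 lacked ARF10, and none lacked ARF4. All 6 ARFs of clade A were present at 141 shared sites (9.99%) and all 6 of clade B at 559 (39.6%), while 712 (50.4%) lacked at least 1 ARF of each clade. The commonest composition was 5 clade A with 6 clade B ARFs, at 331 sites (23.4%).

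Few sets of missing ARFs accounted for much of the collection, out of 120 that occurred. ARF18 alone was missing from 22.0% of the shared sites, ARF18 with ARF29 from 9.49%, ARF18 with ARF39 from 7.93%, and all of these 3 ARFs alone from 7.01%. The fourth ARF to join them was most often ARF14, with ARF14, ARF18, ARF29 and ARF39 missing together from 4.53%.

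For most ARFs, sites without it had weaker events of the others. Strength is the authors' own value for each event and has no stated common scale, so it was read as a percentile within each list, where a higher percentile is a stronger event. The mean percentile of the other ARFs had a median of 78.2 at shared sites with ARF18 and 67.3 at those without it. The corresponding medians were 74.6 with and 63.8 without ARF39, and 69.6 with and 53.1 without ARF16. The order was the same for 10 of 12 ARFs, down to a difference of 0.79 for ARF29. It was reversed for ARF34, at 67.9 with and 76.5 without, and for ARF36, at 68.4 with and 74.0 without. Few shared sites lacked these ARFs (33 for ARF34 and 46 for ARF36), and as few lacked ARF25 (35) and ARF4 (43), which are among the 10. The rule also leaves out the sites with all 12 ARFs, whose mean percentile had a median of 87.4. All of those would count as sites with the ARF, so only the values with an ARF lack them. The part of this in these differences was not tested.

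The shared sites held from 4.29% (ARF34) to 19.5% (ARF39) of the events of a list, and from 22.2% (ARF29) to 45.5% (ARF18, which had 11 such events) of its top 1% by strength. They lay in the upper part of most lists. The median percentile of an ARF's events at shared sites was highest for ARF4 (81.9), ARF34 (81.6), ARF25 (80.5) and ARF36 (80.1), and lowest for ARF18 (55.2) and ARF39 (58.7). ARF18 and ARF39 have the shortest lists (1106 and 4210 events), and those of ARF4, ARF34, ARF25 and ARF36 hold 19058 to 35715. ARF7, with 20802 events, stood at 77.7. A percentile depends on how many weaker events a list holds, and the part of list length in these medians was not tested. Clade A ARFs averaged 72.2 ± 10.1 and clade B ARFs 73.2 ± 8.9 (SD, n = 6 ARFs each). The clade difference of -0.997 percentile points was smaller than the spread between ARFs (exact two-sided permutation test over every way to part the ARFs into 6 and 6, p = 0.851, and 0.851 after Benjamini-Hochberg adjustment over 2 tests). Its sign depended on single libraries, with a difference of 7.13 without ARF18 and 1.62 without ARF29.

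Events were stronger at sites with more ARFs. The median of the mean percentile over the ARFs present was 55.9 at sites with 8 ARFs, 63.1 with 9, 69.0 with 10 and 76.8 with 11, and 87.4 at the sites with all 12. Over all shared sites it was 69.1 (interquartile range 55.5 to 79.8). Every ARF present had a percentile of at least 50 at 310 shared sites (22.0%), against 119 of the sites with all 12 (49.6%). Every ARF present was in the top 10% of its list at 12 shared sites (0.850%), against 26 of those with all 12 (10.8%). At the edge of the rule, the 201 sites of exactly 4 and 4 ARFs had a median of 55.9 (43.7 to 71.1), and the 969 sites just outside, with 3 ARFs of 1 clade and at least 4 of the other, had 58.8 (45.3 to 69.9).

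Positions are given 1-based in the coordinates of the deposited lists, whose genome build is not named. The 4-and-4 site with the highest mean percentile, on chromosome 2 at 15575929 to 15575935, had events of ARF16, ARF18, ARF27, ARF29, ARF7, ARF14, ARF25 and ARF39 within 6 bp. Here ARF18, the ARF most often missing, had a strength of 91.0 and stood at percentile 92.6 of its list, while ARF4 and ARF34, which have long lists, had no event. The strongest site just outside the rule with 3 and 4 ARFs lay on chromosome 7 at 35830286 to 35830295. It had a mean percentile of 98.96.

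To keep an ARF's own presence out of the choice of sites, each ARF was left out of the count in turn. Sites were chosen by the other 11 alone. The same was done for the sites restricted to that ARF's own clade. All were sites chained from all 12 lists. Events of the left-out ARF could thus still join neighbouring events into a site, where it was then present. Shared sites so chosen had at least 4 other ARFs of each clade but not all 11, and restricted sites had 0 of the other clade. The 311 sites that lacked only ARF18 were therefore not counted for ARF18. The kinds of site also differed in number of ARFs, with which strength rose above. The parts of the chaining, of the sites not counted and of the number of ARFs in the differences below were not tested. The left-out ARF had an event at 79.6 ± 23.3% of the shared sites and at 69.3 ± 29.1% of the clade-restricted sites (SD, n = 12 ARFs). It was present more often at shared sites for 9 of 12 ARFs, by 10.3 ± 10.6 percentage points on average (two-sided exact sign-flip permutation test over 4096 flips, p = 0.00439, adjusted p = 0.00879 over 4 measures). The widest gaps belonged to ARF29 (65.5% of shared and 37.1% of restricted sites), ARF39 (55.1% and 30.1%) and ARF10 (84.2% and 60.6%). The 3 exceptions, ARF16, ARF34 and ARF36, were present at over 90% of both kinds of site, with differences of -1.95, -1.76 and -2.20 percentage points.

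Where the left-out ARF did have an event, it was stronger at shared sites. Its median percentile was 77.0 ± 10.8 at shared sites and 67.4 ± 14.0 at clade-restricted sites, a difference of 9.68 ± 7.0 (SD, n = 12 ARFs, exact sign-flip permutation test, p = 0.00146, adjusted p = 0.00586). It was higher in 11 of 12 ARFs. ARF10 differed most, at percentile 80.2 at shared sites and 60.2 at restricted ones, and ARF34 was the exception, at 85.9 and 87.0. The 12 ARFs share most of these sites, so their values are not independent, and this comparison was chosen after the data had been seen.

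**Figure D2:**
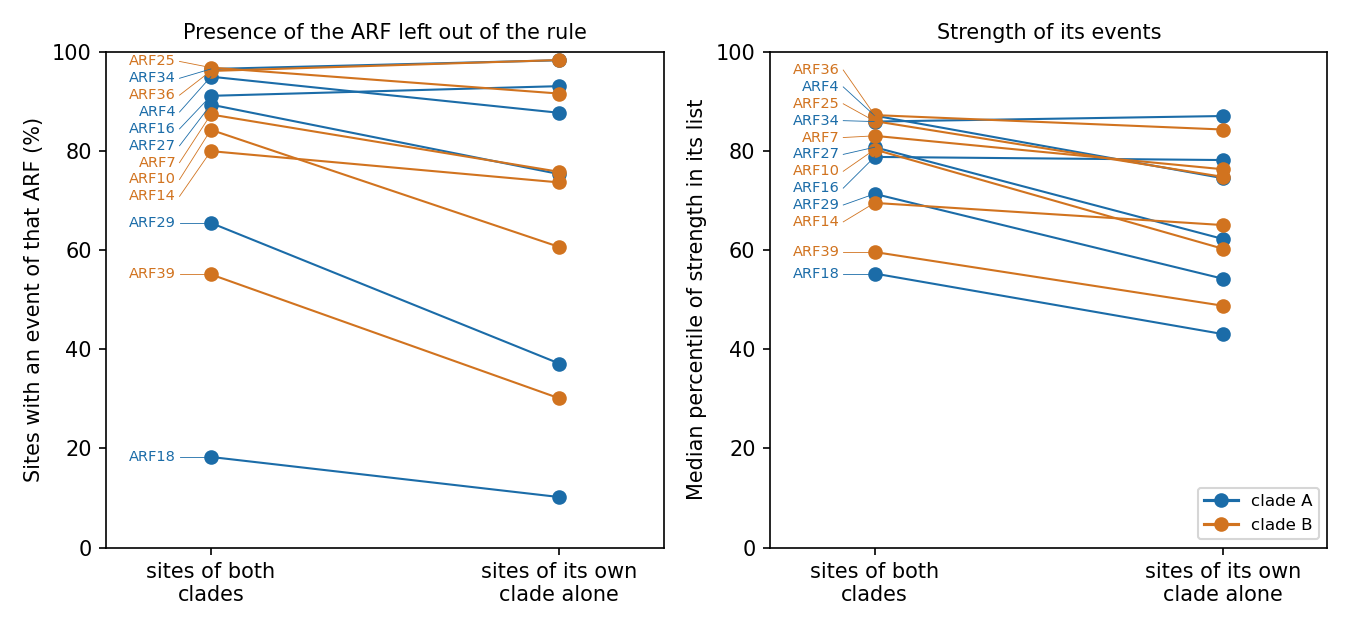
Each line is 1 ARF (clade A blue, clade B orange) that was not counted when the sites were chosen. Sites of both clades are on the left and sites of its own clade alone on the right. The left panel gives the percentage of sites with an event of that ARF and the right panel the median percentile of its events, and most lines fall from left to right, with means of 79.6% and 69.3% for presence and of 77.0 and 67.4 for strength.

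The deposited p of an event moved with its strength. For 45.2% of all events the −log10 p lay within 1% of strength times log10 of 2, and an event is called short here when its −log10 p was more than 5% below that product. Among the 13755 readable events of shared sites, 38.8% were short, against 53.8% at sites with all 12 ARFs, 34.01% at clade A-restricted and 44.4% at clade B-restricted sites. Sorted by mean percentile, the weakest 25% of the shared sites had 7.76% short events and the strongest 25% had 68.1%. Events were readable only where −log10 p was below 290. A very strong event could thus be readable only if short, which favours short events at strong sites. Left-out clade A ARFs had more short events at shared than at restricted sites, by 5.69 ± 1.14 percentage points, and in clade B ARFs the difference was -8.73 ± 1.07 (SD, n = 6 each, difference 14.4, exact permutation p = 0.00216, adjusted p = 0.00649 over 3 measures). Short events went together within sites: at 31.7% of shared sites all were short and at 48.4% none were. The ARFs of a clade were read over many of the same sites. Their 6 values are therefore not independent, and the p does not measure the spread between sites. The restricted sites of clade A and of clade B are also different sites, so this difference cannot part the clades from the sites they were compared with. The part of the strengths in these differences was not tested.

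The 10 shared sites with the highest mean percentile stood at percentile 92.05 or higher in every list that had an event there. The first lay on chromosome 12 at 40628933 to 40628967 and lacked only ARF18. Its strengths were 6652 for ARF4, 1956.3 for ARF16, 5563.6 for ARF27, 7391.2 for ARF29 and 4375.6 for ARF34 in clade A. In clade B they were 7844 for ARF7, 4032 for ARF10, 5430.3 for ARF14, 6309 for ARF25, 10507 for ARF36 and 3723.8 for ARF39. No list placed it below percentile 99.96.

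The second, on chromosome 20 at 32738788 to 32738801, had the highest strength in the data, 20864 in a clade B list, although ARF7 and ARF10 of that clade had no event there and neither did ARF18. A site missing 3 ARFs was thus among the strongest in the lists of the others. The site on chromosome 11 at 16083983 to 16084034 lacked only ARF29, that on chromosome 15 at 19636768 to 19636799 only ARF39, and that on chromosome 4 at 32682485 to 32682503 only ARF16.

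The site on chromosome 7 at 24234641 to 24234676 lacked ARF34, which has the longest list. Strengths there ran from 421.9 to 6322 in the 5 clade A ARFs and from 352.0 to 648.0 in the 6 clade B ARFs, and all percentiles lay above 99. The remaining sites of the 10 lay on chromosome 13 at 19305091 to 19305108, without ARF10 and ARF25, on chromosome 1 at 51491836 to 51491861, without ARF18 and ARF29, and on chromosome 7 at 35830128 to 35830136, without ARF10 and ARF36, and at 5590555 to 5590573, without ARF18. All 73 readable events of these 10 sites were short. At the first and second sites, with strengths of at least 1069.4, this was fixed in advance. There an event with −log10 p below 290 could only be short. The part of this in their strengths was not tested.

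The events of a shared site spanned a median of 56.5 bp (interquartile range 34 to 92, range 4 to 394), with 138 sites of at most 20 bp and 36 of more than 200 bp. Sites with all 12 ARFs spanned a median of 39 bp. The chaining within 100 bp limits these spans. At 964 shared sites (68.3%) every ARF present had a single event. Where an ARF had several, its strongest was used for the positions below.

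Events of ARFs of the same clade lay closer together than those of different clades. Over shared sites, the median distance between the events of 2 ARFs averaged 9.1 ± 2.7 bp in the 30 same-clade pairs and 13.8 ± 3.2 bp in the 36 different-clade pairs (SD over pairs). The difference was -4.65 bp (exact two-sided permutation test over the same divisions, p = 0.00216, the smallest this design can give, adjusted p = 0.00433 over 2 tests). For 12 of 12 ARFs the mean distance to its own clade was the smaller. Clade A pairs averaged 8.2 ± 2.5 bp and clade B pairs 10 ± 2.7 bp (15 pairs each).

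ARF18 and ARF29 lay closest, 4 bp apart at the median over the 171 sites that had both. ARF34 lay farthest from ARF7 and ARF14, at 18 bp each. Some pairs across the clades were close, with 6 bp between ARF18 and ARF39 and 7 bp between ARF29 and ARF39, while ARF29 and ARF34, both of clade A, were 13 bp apart. ARF18 and ARF39 were compared at 114 sites, the fewest of any pair, ARF29 and ARF39 at 616, and ARF29 and ARF34 at 960.

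**Figure D3:**
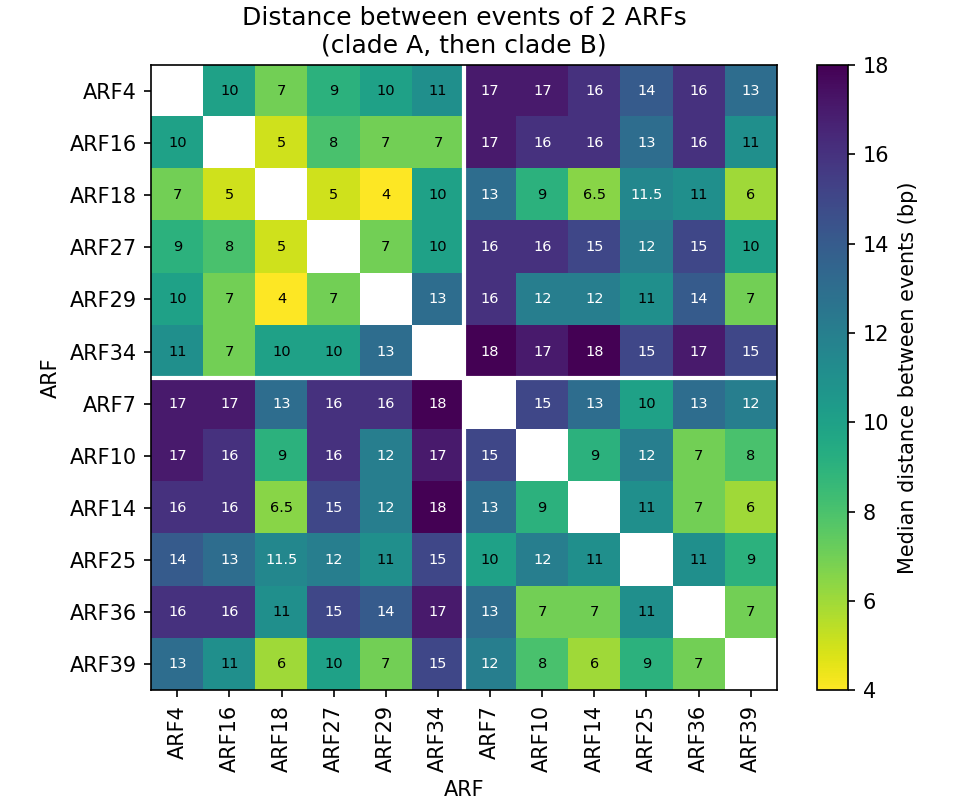
Median distance in bp between the events of each pair of ARFs over the shared sites that have both, with clade A first, clade B after it and white lines between them. The same-clade blocks hold the shorter distances (mean 9.1 bp) and the different-clade blocks the longer ones (mean 13.8 bp), down to 4 bp for ARF18 with ARF29 and up to 18 bp for ARF34 with ARF7 and ARF14.

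At single sites, the mean positions of clade A and clade B lay a median of 11.4 bp apart (interquartile range 4.58 to 23.5). They were at most 5 bp apart at 378 shared sites (26.8%), more than 20 bp apart at 433 (30.7%) and more than 50 bp apart at 101 (7.15%). Sites with all 12 ARFs had a median offset of 6 bp, with 45.8% at most 5 bp apart. The offset was smaller at sites with more ARFs, at 19.0 bp with 8 ARFs, 12.4 bp with 9, 10.9 bp with 10 and 8.77 bp with 11. It is a distance without sign, so scatter of positions alone gives an offset, which shrinks as more ARFs are averaged. This applies to the sites with all 12 ARFs too, and its part in these values was not tested. Clade A had the higher coordinate at 681 shared sites, the lower at 727 and the same at 4.

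**Figure D4:**
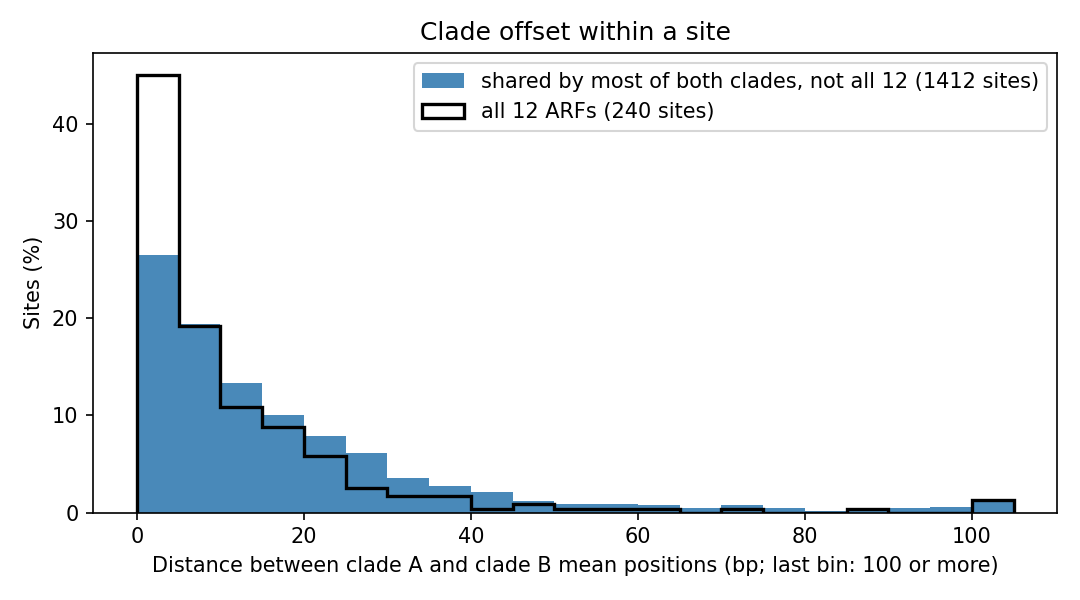
Distance in bp between the mean positions of clade A and clade B within a site, as the percentage of sites in bins of 5 bp, with shared sites filled and sites with all 12 ARFs outlined. The shared sites have a median of 11.4 bp and the all-12 sites, which fill the lowest bin more, one of 6 bp.

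The ranges of clade A and clade B positions did not overlap at 149 shared sites (10.6%), beside 9.32% of all 1652 sites tested. Those 1652 are mostly the shared sites themselves. At the sites with all 12 ARFs the share was 2.08% (5 of 240). Within the shared sites it was 21.4% with 8 ARFs and 5.68% with 11. Ranges of fewer ARFs lie apart more often by the order of positions alone, and the part of this in these shares was not tested. A separate exact permutation test of the clade means at each of the 1652 sites found none with adjusted p at or below 0.05, so 0 of 1412 shared sites were called, beside 0% of all. The smallest adjusted p was 0.130. Unadjusted, 320 shared sites (22.7%) had p at or below 0.05, beside 22.4% of all 1652. A site of 4 and 4 ARFs cannot reach p below 0.0286 and one of 5 and 6 none below 0.00216, so the design limits single sites.

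The site with the largest offset lay on chromosome 4 at 20408643 to 20409037, with clade means 299.2 bp apart. Since no site passed the threshold, it and the next were taken from all shared sites. On chromosome 20 at 21458767 to 21459119, which lacked only ARF18, clade A events lay at 21458869 for ARF4 and ARF16, 21458902 for ARF27, 21458904 for ARF29 and 21458767 for ARF34. Clade B events lay from 21459089 (ARF10) to 21459119 (ARF7). The clades were 185 bp apart at their nearest, and the site spanned 352 bp through the chaining of events. The next offsets were 228.9 bp on chromosome 9 at 12406988 to 12407294, 194.0 bp on chromosome 10 at 38383872 to 38384203, and 173.4 bp on chromosome 4 at 25952589 to 25952982, where the clades overlapped.

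Some shared sites leaned toward 1 clade in strength. For this, events were ranked among the events of the same ARF within the 1652 shared and all-12 sites together, as a percentile. The median size of the clade difference in mean rank was 17.7, with clade A higher at 698 shared sites and clade B at 714. By exact permutation tests at each site, 0 of 1412 shared sites had adjusted p at or below 0.05, beside 0% of all 1652, and the smallest adjusted p was 0.0605. Unadjusted, 435 shared sites (30.8%) had p at or below 0.05, beside 30.3% of all. Clade A was higher at 183 of these (13.0% of shared sites, beside 13.9% of all) and clade B at 252 (17.8%, beside 16.4%). Ranks of the clades did not overlap at 215 shared sites (15.2%, beside 13.7%). With 5 or more ARFs required from both clades, which allows smaller p, 60 of 584 shared sites passed (10.3%, beside 9.83% of all 824 sites tested in that setting). Clade A was higher at 12 of them (2.05%, beside 3.4% of all) and clade B at 48 (8.22%, beside 6.43%).

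The strongest lean toward clade B was on chromosome 6 at 27222356 to 27222409, without ARF16 and ARF18. Strengths were 32.0 for ARF4, 21 for ARF27, 22.0 for ARF29 and 43.0 for ARF34, against 205.0 for ARF7, 99.0 for ARF10, 442.0 for ARF14, 197.0 for ARF25, 210.5 for ARF36 and 325.0 for ARF39. Clade A ranks ran from 1.29 to 21.3 and clade B ranks from 92.2 to 97.9, a difference of -85.0. The next were on chromosome 17 at 38884262 to 38884279 (-73.6), chromosome 13 at 16117341 to 16117373 (-72.4), chromosome 4 at 32181660 to 32181782 (-72.3) and chromosome 2 at 46616846 to 46616878 (-71.1).

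The strongest lean toward clade A was on chromosome 5 at 4018054 to 4018147, a site of 4 and 4 ARFs. Strengths were 306.9 for ARF16, 51.0 for ARF18, 86.0 for ARF27 and 301.4 for ARF34, against 24.0 for ARF7, 27.2 for ARF10, 34 for ARF14 and 22.7 for ARF36. The ranks did not overlap and differed by 74.6. The next were on chromosome 3 at 22901527 to 22901564 (70.9), chromosome 10 at 3268221 to 3268331 (63.5), chromosome 13 at 14820164 to 14820186 (63.3) and chromosome 8 at 32834413 to 32834630 (63.0). None of these 10 sites passed the adjusted threshold, so they are extremes of all shared sites and not called differences.

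Shared sites occurred on all 20 chromosomes, from 51 on chromosomes 16 and 20 to 85 on chromosome 18. Per megabase of the span covered by events, they ran from 1.07 on chromosome 20 to 1.87 on chromosome 17, with a median of 1.47. They made up 1.40% to 2.44% of all sites on a chromosome. Neighbouring shared sites lay a median of 405 kb apart, 28 of 1392 gaps were under 10 kb, and the widest was 7.64 Mb.

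Along the chromosomes they lay toward the ends. The middle 50% of each span held 472 shared sites, or 33.4% (Wilson interval 31.0% to 35.9%), against 48.7% (47.6% to 49.9%) of clade-restricted sites and 47.5% (47.2% to 47.9%) of all sites. Sites with all 12 ARFs had 39.6% there. Cut into 10 equal lengths, the spans held in their outermost lengths 30.5% of shared sites, against 21.8% of clade-restricted and 22.5% of all sites. The lower share in the middle held for 19 of 20 chromosomes, most on chromosome 16 (29.4% of shared against 60.5% of restricted sites). Chromosome 13 was the exception, at 49.4% and 48.5%. Sites are not replicates and each ARF had 1 library, so this difference was not tested.

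The share in the middle changed little with the number of ARFs, at 35.8% for 8, 33.4% for 9, 32.5% for 10 and 33.3% for 11. Sorted by mean percentile, the weakest 25% of shared sites had 33.1% there and the strongest 25% had 32.6%. Sites in the middle and outside it had nearly the same median of mean percentile, 69.4 and 69.0, and the same held for short events, at 38.0% and 39.3%. The lean toward the ends was not seen, however, among the 85 shared sites found with only the 1106 strongest events of each list. Of these, 48.2% (37.9% to 58.7%) lay in the middle, beside 47.5% of all sites of the full lists.

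**Figure D5:**
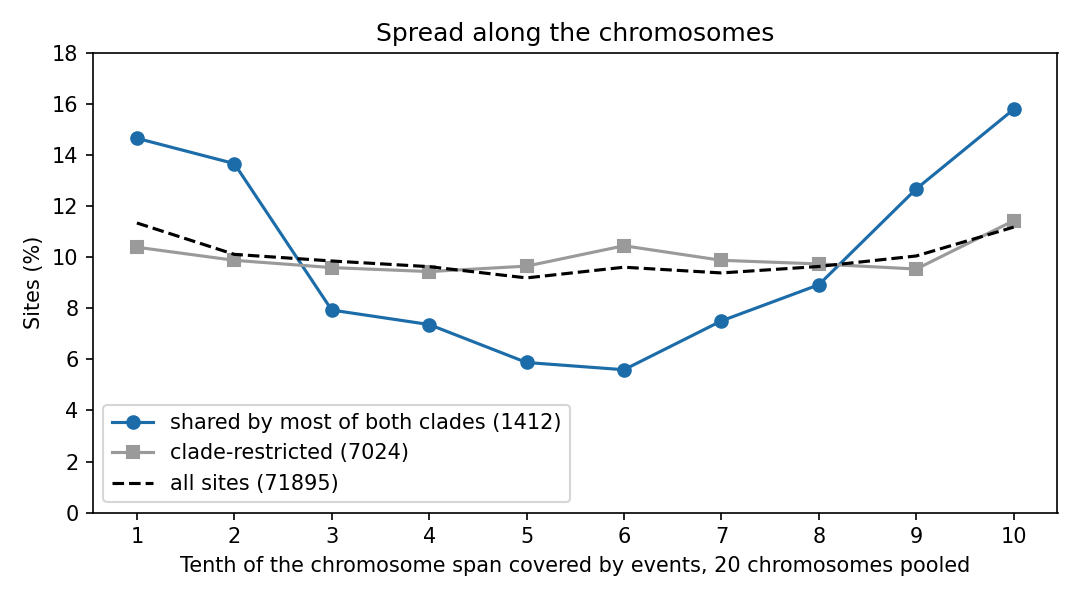
Percentage of sites in each of 10 equal lengths of the chromosome span covered by events, over 20 chromosomes, for shared, clade-restricted and all sites. Shared sites reach 14.7% and 15.8% at the ends and fall to 5.59% near the centre, while the clade-restricted sites stay between 9.44% and 11.4%.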

How the data were processed

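The assay was DAP-seq with 12 maize ARFs and leaf DNA of soybean, with 1 event list per ARF. The tag control was not analysed here. Per the submitters' processing notes, the authors used Trimmomatic 0.36 and Bowtie2. Of the genome build and caller settings, neither is given in the sources used here. Coordinates are those of the deposited lists, written 1-based. Each deposited list holds windows of 201 bp with the event position at offset 100. The deposited signal value (17 to 20864) is the authors' strength of an event, with no stated scaling. The −log10 p and the −log10 q of events are deposited by the authors, with a ceiling of 999, and p was read only where its −log10 was below 290. The deposited score column was not used. Depth is unknown.

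Positions were chained within 100 bp. Percentiles were ranks of strength within a list. Tests were two-sided exact permutation tests over ARFs, with Benjamini-Hochberg adjustment, tested on simulated data. The members, lists, tests and rule for named sites were chosen with earlier results of these data known. The rule took the 10 sites of highest mean percentile, the 5 of largest difference in strength rank in each direction, the 5 of largest offset, and 2 sites each just inside and outside the rule. The comparisons with a left-out ARF and the measures of short p were chosen after seeing the data. Motif, gene and sequence steps were not run, since no build is named. Other settings are given in the closing section. Software comprised matplotlib 3.10.9, scipy 1.17.1, pandas 2.3.3 and numpy 2.4.6 under Python 3.11.15.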

Additional observations from a re-analysis of the deposited data

Results flagged for a closer look

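In clade A, ARF18 stood apart from the other 5 ARFs in the share of its events that were short at the shared sites chosen without it, at 52.3%, where the others ran from 34.7% to 39.4%. ARF18 also stood apart at clade-restricted sites, at 45.2%, where the others ran from 29.0% to 34.4%. Shared sites with ARF18 had stronger events of the other ARFs (median 78.2 with and 67.3 without it), and short events were more frequent at stronger sites. The part of this was not tested. The value of 52.3% came from 20 groups of 6 ARFs, and chance singles out about 1 in 20 such groups.

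The change in short events between shared and clade-restricted sites differed between the clades by 14.4 percentage points in an exact permutation test, with every clade A ARF higher at shared sites and every clade B ARF lower. At shared sites the shares were 34.7% to 39.4% in clade A ARFs other than ARF18, and 35.0% to 36.2% in clade B ARFs. At clade-restricted sites, which are different sites for each clade, they were 29.0% to 34.4% and 43.4% to 47.0%. The ARFs of a clade were read over many of the same sites, so their values are not independent. The p thus cannot part the clades from the restricted sites they were compared with.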

How the results depend on the processing

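The number of shared sites depended on the lists and the rule. It was 621 with the events in the upper 50% of each list by −log10 q, 85 with the 1106 strongest events of each list and 584 with 5 or more ARFs required from both clades, and 820 to 1291 when 1 ARF was left out. Without ARF4 it was 845, without ARF16 882, without ARF27 894 and without ARF34 820. Merging at 50 or 200 bp gave 1299 and 1448. The clade difference in percentile of strength was 2.83 with the 1106 strongest events, and -4.78 to 7.13 without 1 ARF, positive without ARF16, ARF18, ARF27 or ARF29. The share in the chromosome middle was 48.2% with the 1106 strongest events and 21.2% with the middle taken from 33% to 67%, a narrower span by construction. With 5 or more from both, the strength-rank test called 60 of 584 shared sites (10.3%), beside 9.83% of the 824 sites tested. The causes of the other changes were not tested. The same-clade distance difference lay between -6.29 and -2.55 bp under 6 settings and between -5.01 and -3.73 bp without 1 ARF, each with an exact permutation p of 0.00216. The left-out differences lay between 7.83 and 11.2 percentage points (presence) and between 6.51 and 10.1 (percentile). Libraries could not be paired by replicate, because each ARF has 1 library and the labels carry no replicate numbers that join them. The sign-flip tests paired shared with clade-restricted sites within each ARF. Unknown depth limits every statement on an absent event.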

Other observations

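The order of the shared sites by strength was more alike within clades. Across the shared sites that 2 ARFs had in common, the Spearman correlation of strength rank averaged 0.55 in same-clade pairs (0.33 to 0.80) and 0.23 in different-clade pairs (0.024 to 0.60). ARF16 and ARF34, both of clade A, had the highest, 0.80. These values are descriptions over 114 to 1345 sites per pair, which share genomic DNA and a site list and are not replicates.

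A second event of the same ARF was found at 5.80 ± 3.12% of its shared sites and at 3.69 ± 3.41% of its clade-restricted sites (SD, n = 12 ARFs). The distance from an ARF to its own clade averaged 9.1 bp at shared and 9.6 bp at clade-restricted sites. It was shorter at shared sites for 10 of 12 ARFs, but the difference of -0.50 ± 0.69 bp did not pass after adjustment (exact sign-flip permutation p = 0.0420, adjusted p = 0.0560 over 4 measures). Of the readable events of the left-out ARF, 37.8 ± 4.8% were short at shared sites and 39.4 ± 6.7% at clade-restricted sites (SD, n = 12 ARFs), with 6 ARFs higher and 6 lower (exact sign-flip permutation p = 0.496, adjusted p = 0.496).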
